A study of Homo sapiens with 9 samples.

Results

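The genes described here encode the proteasome, the barrel-shaped protease that degrades ubiquitin-tagged proteins, together with its regulators and the factors that assemble it. Members were all genes with a symbol of the PSMA to PSMG series (PSM, a letter from A to G, then a number), plus POMP, PAAF1, UCHL5, ADRM1, USP14 and ECPAS. On the platform 43 of them had a probe set naming that gene alone, among 14207 genes measured in this way. They comprised 15 core genes, 20 cap and regulator genes and 8 assembly genes. PSMB9, PSMD14, PSMG2 and PSMG4 lay only on probe sets naming several genes and are not reported. The same holds for PSMC3IP and the antisense gene PSMB8-AS1, which the symbol rule also takes. PSMA6, PSMA8, PSMB11, PSMC1, PSMC5, PSMC6, PSMD7 and PSMD13 were not analysed here.

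Transcript levels came from 9 arrays of ARPE-19, a human line derived from retinal pigment epithelium, grown to confluence in serum and then kept in medium with serum albumin instead. There were 3 arrays of cells given vehicle, 3 of cells given cigarette smoke condensate at 100 µg/ml and 3 of cells given it at 250 µg/ml; the condensate was a commercial stock in DMSO that also contained nicotine, and how long the cells were exposed is not stated in the labels. Because no label ties the numbered arrays of a group to independent cultures, the p-values rest on a spread between arrays that may be technical. In such bulk samples fewer cells of a kind and less RNA per cell cannot be told apart. Of the defining markers of pigment epithelium, the visual cycle gene RPE65 (2.33 to 2.69) and the channel gene BEST1 (2.57 to 2.85) lay below the lower quartile of every array on the log2 scale, whereas the transcription factor gene OTX2 (8.38 to 9.28) and the keratin gene KRT8 (10.3 to 11.5) lay above the upper quartile. Of 11 measured markers of pigment epithelium, 5 of fibroblasts, 4 of endothelium and 3 of leukocytes, 0 passed the threshold at either dose by limma; at an unadjusted p under 0.05, 2, 1, 0 and 1 of them were lower at 250 µg/ml and 3, 2, 0 and 1 at 100 µg/ml, beside 7.90% and 7.65% of all genes. Means of the pigment epithelium markers were below vehicle for 9 of 11 at 250 µg/ml (median -0.30) and for 11 of 11 at 100 µg/ml (median -0.22). Over all 14207 genes the mean was below vehicle for 8135 at 250 µg/ml and for 8416 at 100 µg/ml. RPE65, BEST1, TTR, RLBP1, SERPINF1 and LRAT had mean levels of only 2.49 to 3.65, below the median of all genes on every array. The part of these markers in the results was not tested.

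The proteasome consists of a core particle of stacked alpha and beta rings, in which certain beta subunits carry the proteolytic sites, and of regulatory particles that cap its ends. The main cap binds ubiquitin chains, removes them and uses a ring of ATPases to unfold the substrate; other regulators open the core without ubiquitin. In mammals, cells short of proteasome activity raise the transcription of nearly all subunit genes through NFE2L1, a factor that binds antioxidant response elements, and the related factor NFE2L2 (NRF2) has been tied to subunit genes under oxidative stress. Retinal pigment epithelium, which hardly divides in the adult eye, relies on protein turnover to clear damaged proteins.

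Promoter windows are shown for 4 of the 5 members that were higher at 250 µg/ml without overlap between arrays and that hold the core of the antioxidant response element, so that the motif can be seen in its place. PSMG1 also meets both conditions and is not shown. Being chosen for both, the windows cannot show whether motif and change go together. The motif was held by 5 of 13 members higher without overlap and by 10 of 24 others with a window. Each window shown runs from 250 bases before to 50 bases after a RefSeq start site (build GRCh38.p14, strand of the gene). Capitals mark TGACNNNGC or its reverse complement. PSMA4, an alpha subunit gene, has 3 windows, of which the one at chr15:78540536-78540835 (plus strand) holds the motif. PSMD1, encoding a scaffold subunit of the cap, is at chr2:231056617-231056916 (plus strand). USP14, encoding a deubiquitinase bound to the cap, is at chr18:158307-158606 (plus strand). PSME4, encoding the activator PA200, is at chr2:53970944-53971243 (minus strand).
PSMA4: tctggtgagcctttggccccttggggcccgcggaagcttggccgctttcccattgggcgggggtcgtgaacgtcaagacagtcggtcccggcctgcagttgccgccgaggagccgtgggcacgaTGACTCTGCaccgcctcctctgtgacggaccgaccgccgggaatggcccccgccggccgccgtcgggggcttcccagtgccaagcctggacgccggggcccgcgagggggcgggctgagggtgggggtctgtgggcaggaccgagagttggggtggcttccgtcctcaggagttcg
PSMD1: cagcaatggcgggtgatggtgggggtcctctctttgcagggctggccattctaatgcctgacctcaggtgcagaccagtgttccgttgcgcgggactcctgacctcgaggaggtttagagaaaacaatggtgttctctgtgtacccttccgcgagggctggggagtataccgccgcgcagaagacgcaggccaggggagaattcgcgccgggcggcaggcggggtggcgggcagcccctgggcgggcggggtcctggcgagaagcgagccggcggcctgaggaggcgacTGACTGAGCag
USP14: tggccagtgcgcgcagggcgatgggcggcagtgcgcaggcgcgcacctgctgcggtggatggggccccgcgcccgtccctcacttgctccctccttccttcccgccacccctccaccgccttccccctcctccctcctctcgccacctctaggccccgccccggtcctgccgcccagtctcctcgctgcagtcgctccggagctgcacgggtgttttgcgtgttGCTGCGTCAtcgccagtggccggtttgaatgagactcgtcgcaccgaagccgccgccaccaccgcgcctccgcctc
PSME4: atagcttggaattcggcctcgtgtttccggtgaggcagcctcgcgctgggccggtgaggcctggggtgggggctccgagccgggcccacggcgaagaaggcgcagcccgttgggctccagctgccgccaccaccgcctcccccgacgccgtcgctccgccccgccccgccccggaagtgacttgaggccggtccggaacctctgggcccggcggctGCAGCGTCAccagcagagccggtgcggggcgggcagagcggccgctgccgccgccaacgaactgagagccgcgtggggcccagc

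Relative to the start site, the match began at base -126 in PSMA4, 40 in PSMD1, -26 in USP14 and -34 in PSME4. In PSMA4 and PSMD1 it lay on the strand of the gene, and in USP14 and PSME4 on the opposite strand. Of the 43 members 37 had at least 1 window in the table, and 15 of these 37 (40.5%) held the motif on either strand, against 2127 of 11372 tested genes with a window (18.7%). The CCAAT box (CCAAT on either strand) was found in 18 of the 37 members (48.6%) and in 43.0% of the tested genes; the motifs can share end bases, but no matches of the one overlapped the other in a member. These are matches of letters in a short window, not bound sites.

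At 250 µg/ml the proteasome genes lay mostly above vehicle by modest amounts. The mean was higher than in vehicle for 37 of 43 members, against 42.7% of all genes, and the median change over the members was 0.49 log2 units, against -0.04 over all genes. PSMA4 alone passed the threshold (limma, adjusted p under 0.05 over all genes), so 1 of 43 members was called beside 0.549% of all genes. At an unadjusted p under 0.05 13 members were higher and 0 lower, where 8.74% of all genes were higher and 7.90% lower. The 3 treated arrays lay above the 3 vehicle arrays without overlap in 13 members, against 8.61% of all genes, and below them in 0 members, against 14.3%. The members' median level was 8.30 log2 units, against 4.65 over all genes, so these shares come mostly from dimmer genes than the members. Whether expression level contributed to the differences from all genes, at either dose, was not tested.

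At 100 µg/ml most members also lay above vehicle and no member was called. The mean was higher than in vehicle for 35 of 43 members, against 40.8% of all genes, and the members' median change was 0.36, against -0.05 over all genes. By limma 0 of 43 members passed, where 0.0633% of all genes did. At an unadjusted p under 0.05 11 members were higher and 0 lower, beside 7.00% and 7.65% of all genes. Arrays did not overlap and were higher in 12 members, against 6.41% of all genes, and were lower in 0, against 11.9%. Both doses were set against the same vehicle arrays, so their results are not independent of each other.

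Vehicle replicate 1 held the lowest value of the 9 arrays in 27 of the 43 members (62.8%), against 17.5% of all genes. Without it the median change over the members was 0.21 at 250 µg/ml and 0.09 at 100 µg/ml, the mean was higher in 30 and 27 members, and the call of PSMA4 ended (limma adjusted p = 0.0687). The all-gene shares above belong to the fit with all 9 arrays, so these counts have no such share beside them. Vehicle replicate 1 also had the lowest median over all genes, 4.52 against 4.66 and 4.68 in the other vehicle arrays. Its lower quartile was the highest of the vehicle arrays (3.14 against 3.12 and 3.08) and its upper quartile the lowest (6.52 against 6.71 and 6.77). Centring on the median does not remove such a narrower spread, and the members' median lay above the upper quartile on every array. Measured from each array's own median, the members' median was 3.02, 3.24 and 3.26 in vehicle, 3.65, 3.91 and 3.60 at 100 µg/ml and 3.68, 3.97 and 3.60 at 250 µg/ml. Every treated array thus lay above every vehicle array in this summary, vehicle replicate 1 included or not.

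**Figure D1:**
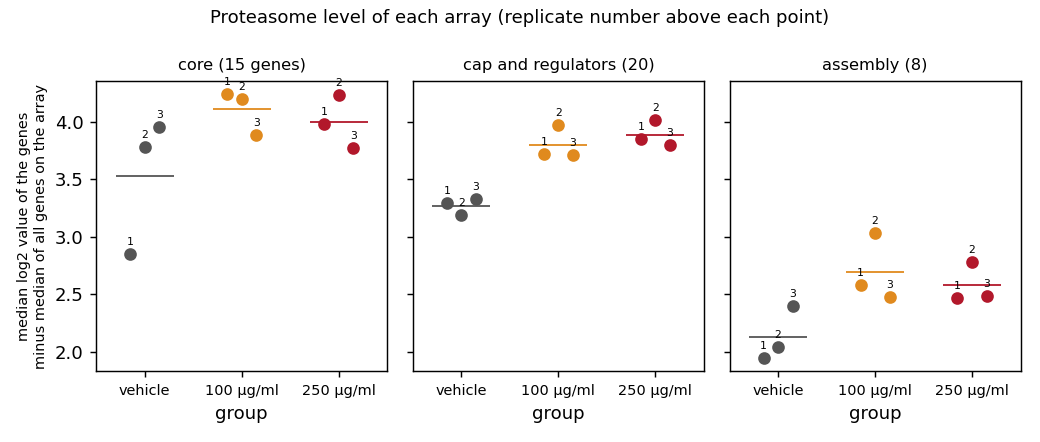
Median log2 value of the core, cap and assembly genes on each array, minus the median of all genes on that array, by group; points are arrays with their replicate numbers and lines are group means. For the cap genes the vehicle arrays lie between 3.19 and 3.33 and all treated arrays at 3.71 or above, whereas for the core genes vehicle replicate 1 stands at 2.85 and the other vehicle arrays overlap the treated ones.

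By class, the values without that array moved by different amounts. Cap and regulator genes had vehicle medians of 3.29, 3.19 and 3.33 relative to the array median, 3.72, 3.97 and 3.71 at 100 µg/ml and 3.85, 4.01 and 3.80 at 250 µg/ml, with no overlap between treated and vehicle arrays. Core genes had 2.85, 3.78 and 3.95 in vehicle, 4.24, 4.20 and 3.89 at 100 µg/ml and 3.98, 4.23 and 3.77 at 250 µg/ml, so that vehicle replicates 2 and 3 overlapped the treated arrays. Assembly genes had 1.94, 2.04 and 2.39 in vehicle, 2.58, 3.04 and 2.47 at 100 µg/ml and 2.47, 2.78 and 2.48 at 250 µg/ml, without overlap. Without vehicle replicate 1 the median change of the core genes was 0.09 at 250 µg/ml and -0.01 at 100 µg/ml, in place of 0.51 and 0.27. That of the cap genes was 0.23 and 0.15, in place of 0.52 and 0.40, and that of the assembly genes 0.14 and 0.25, in place of 0.37 and 0.46.

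**Figure D2:**
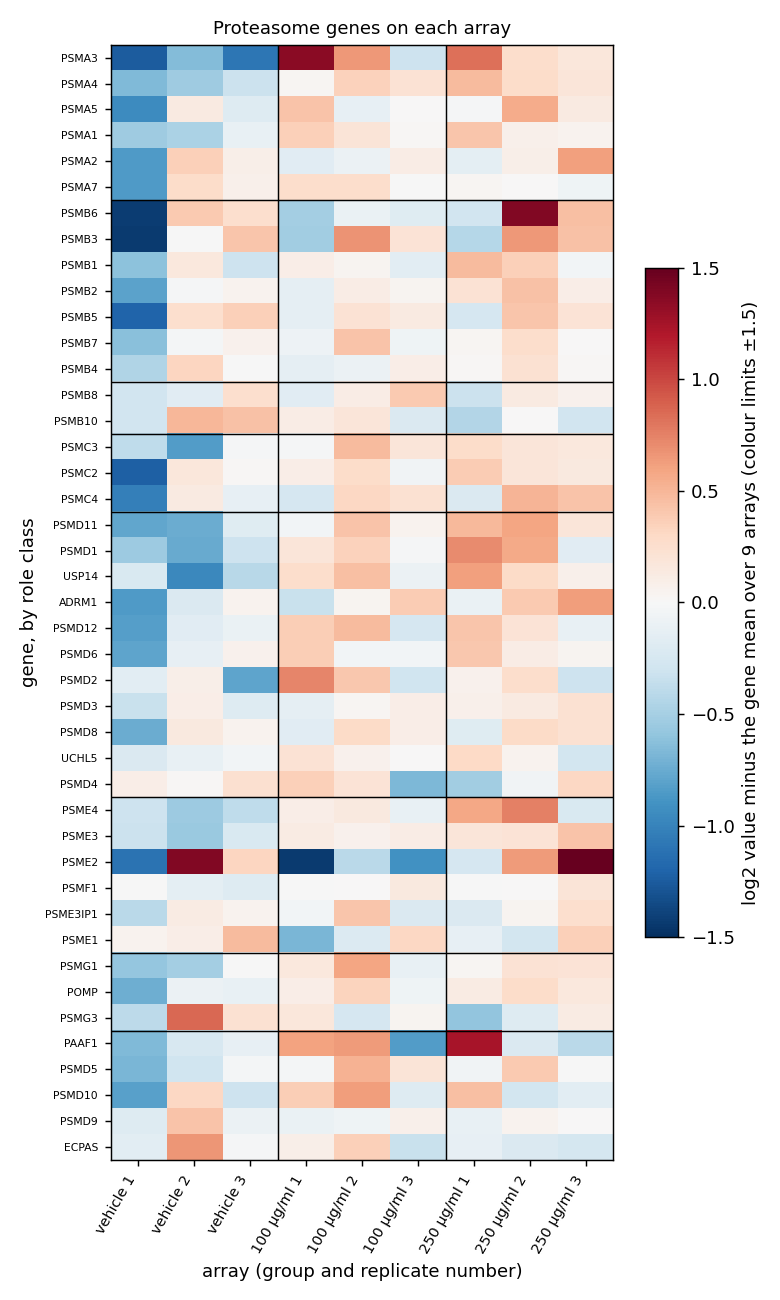
Log2 value of each of the 43 members on each array minus the gene's mean over the 9 arrays (red higher, blue lower, colours limited to 1.5 in either direction), with genes grouped by role and arrays by group. The vehicle replicate 1 column is blue through the alpha and beta subunits, which all have their lowest value there, whereas PSMA3, PSMA4, PSMD11, PSMD1 and USP14 are blue in all 3 vehicle columns.

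Among the alpha subunits, which form the outer rings and the gate of the core, all 6 measured had a higher mean at both doses, and the median change was 0.56 with the 250 µg/ml dose and 0.50 with the lower one. Without vehicle replicate 1, which was the lowest array for all 6, these medians were 0.37 and 0.31, and PSMA2 and PSMA7 had means below vehicle at both doses. PSMA4 had log2 values of 10.304, 10.440 and 10.649 in vehicle, 11.004, 11.316 and 11.182 at 100 µg/ml and 11.439, 11.241 and 11.153 at 250 µg/ml. No treated array overlapped a vehicle array, and the gap between the groups was larger than the range within any group. At 250 µg/ml PSMA4 rose 1.76-fold (limma log2 change 0.81 ± 0.14, SE, 3 arrays per group, adjusted p = 0.0491), and at 100 µg/ml the change was 0.70 ± 0.14 (adjusted p = 0.14). The call lay close to the threshold: its adjusted p ran between 0.0302 and 0.196 over the other settings, and the call ended without dim genes (0.0597), with only the 6 arrays (0.133) and without both dose arrays numbered 3 (0.0697). It also ended without vehicle replicate 2 (0.0973) and without replicate 1, 2 or 3 at 250 µg/ml (0.169, 0.196 and 0.0651).

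PSMA3, an alpha subunit that also contacts many partner proteins, had the largest change of any member at both doses. Its log2 values were 6.65, 7.25 and 6.82 in vehicle, 9.25, 8.55 and 7.59 at 100 µg/ml and 8.72, 8.16 and 8.06 at 250 µg/ml. The treated arrays all lay above vehicle, but those at 100 µg/ml spread over more than a log2 unit, with replicate 3 nearest to vehicle. The change was 1.41 ± 0.39 at 250 µg/ml (2.66-fold, limma adjusted p = 0.138) and 1.56 ± 0.39 at 100 µg/ml (2.95-fold, adjusted p = 0.199), neither past the threshold. PSMA1 was also higher without overlap, by 0.55 ± 0.16 and 0.56 ± 0.16 (adjusted p = 0.153 and 0.219 at 250 and 100 µg/ml). The other alpha genes, PSMA2, PSMA5 and PSMA7, had changes of 0.32, 0.56 and 0.15 at 250 µg/ml with overlapping arrays. Without vehicle replicate 1 those changes were -0.03, 0.26 and -0.19.

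The beta subunits form the inner rings, and 3 of them are proteases: PSMB5 has the chymotrypsin-like, PSMB6 the caspase-like and PSMB7 the trypsin-like activity. PSMB5 had log2 values of 6.05, 7.50 and 7.60 in vehicle, 7.11, 7.46 and 7.38 at 100 µg/ml and 7.00, 7.67 and 7.45 at 250 µg/ml. Vehicle replicate 1 stood more than a log2 unit below the other vehicle arrays, which lay among the treated ones. Its change was 0.32 ± 0.39 at 250 µg/ml and 0.27 ± 0.39 at 100 µg/ml (limma adjusted p = 0.707 and 0.782), and without vehicle replicate 1 these were -0.18 and -0.23.

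PSMB6 also had a low vehicle replicate 1, with 6.08, 7.90 and 7.75 in vehicle, 6.99, 7.40 and 7.32 at 100 µg/ml and 7.21, 8.89 and 7.95 at 250 µg/ml. The value of 8.89 in replicate 2 at 250 µg/ml was the highest of the 9. The changes were 0.77 ± 0.54 and -0.0035 ± 0.54 at 250 and 100 µg/ml (limma adjusted p = 0.495 and 0.999), and 0.19 and -0.59 without vehicle replicate 1. PSMB7 differed by 0.30 ± 0.21 and 0.30 ± 0.21 (adjusted p = 0.495 and 0.529), and by 0.09 at each dose without that array.

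The other beta genes, PSMB1, PSMB2, PSMB3 and PSMB4, which hold no active site, had changes between 0.13 and 0.57 at 250 µg/ml. PSMB3 differed by 0.57 ± 0.51 at 250 µg/ml and 0.46 ± 0.51 at 100 µg/ml (limma adjusted p = 0.607 and 0.705), and by 0.02 and -0.08 without vehicle replicate 1. PSMB2 was the only beta gene without overlap at 250 µg/ml, with 10.6, 10.8 and 10.5 against 9.57, 10.3 and 10.4 in vehicle, a change of 0.51 ± 0.22 (adjusted p = 0.295) that was 0.24 without vehicle replicate 1. All 13 constitutive alpha and beta genes measured had their lowest value in vehicle replicate 1.

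The immunoproteasome subunits replace the catalytic beta subunits in immune cells and under interferon, and neither measured gene differed from vehicle past the threshold. PSMB8, the counterpart of PSMB5, had 5.70, 5.82 and 6.25 in vehicle, 5.82, 6.10 and 6.38 at 100 µg/ml and 5.67, 6.13 and 6.05 at 250 µg/ml. The groups overlapped throughout, differing from vehicle by 0.03 ± 0.20 with the higher dose and 0.18 ± 0.20 with the lower (limma adjusted p = 0.961 and 0.718), and the first turned to -0.08 and -0.01 after quantile normalization and median centring. PSMB10, the counterpart of PSMB7, had 3.95, 4.74 and 4.67 in vehicle, 4.35, 4.42 and 4.02 at 100 µg/ml and 3.80, 4.24 and 3.96 at 250 µg/ml. It differed by -0.46 ± 0.23 and -0.19 ± 0.23 at 250 and 100 µg/ml (limma adjusted p = 0.349 and 0.723). With vehicle replicate 1 left out these differences were -0.71 and -0.44. Whether immune and constitutive subunit genes differed in their change was not tested.

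**Figure D3:**
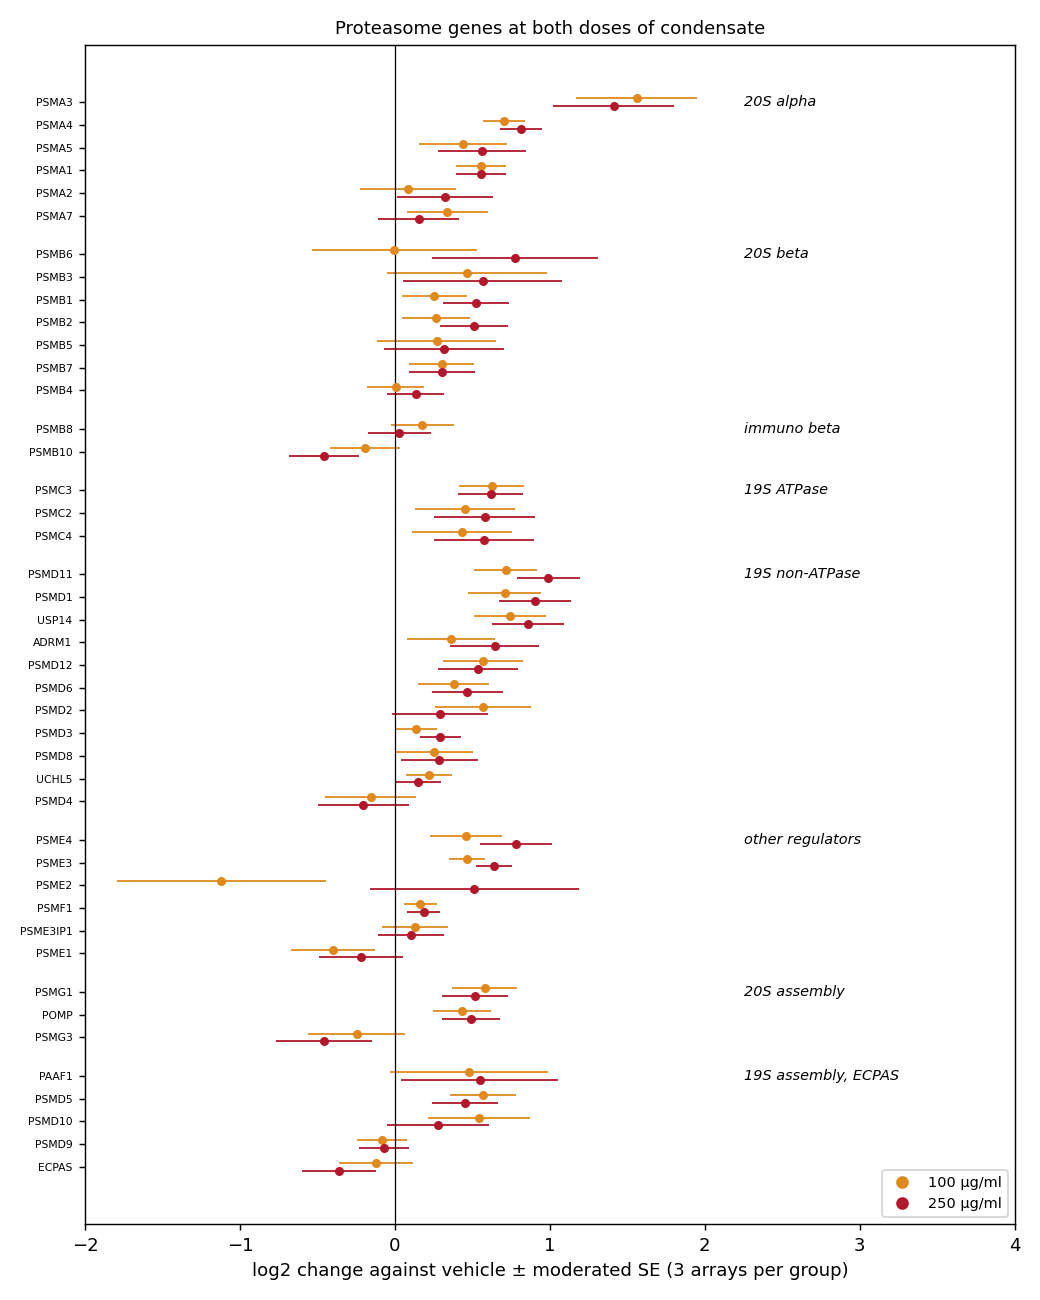
Log2 change against vehicle of all 43 members at 100 µg/ml (orange) and 250 µg/ml (red), by role, with bars of 1 moderated standard error from limma (3 arrays per group). Most points lie to the right of 0, with PSMA3 farthest at 1.56 and 1.41, and the points left of 0 at both doses are PSMB10, PSMD4, PSME1, PSMG3, PSMD9 and ECPAS.

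In the cap, the ATPase genes PSMC2, PSMC3 and PSMC4, whose products form the unfolding ring, had changes of 0.58, 0.62 and 0.58 at 250 µg/ml. PSMC3 had 8.28, 7.82 and 8.65 in vehicle, 8.64, 9.13 and 8.84 at 100 µg/ml and 8.93, 8.84 and 8.82 at 250 µg/ml. Its arrays did not overlap at 250 µg/ml, where the change was 0.62 ± 0.21 (limma adjusted p = 0.205), and at 100 µg/ml, with 0.63 ± 0.21 (0.264), they overlapped by less than 0.01. It kept 0.63 and 0.64 without vehicle replicate 1. PSMC2 had vehicle values of 7.60, 8.99 and 8.83 with replicate 1 low, and its changes of 0.58 and 0.45 (adjusted p = 0.405 and 0.539) were 0.14 and 0.01 without that array. PSMC4 likewise had 0.58 and 0.43 with all arrays and 0.23 and 0.09 without it.

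At 250 µg/ml the largest changes in the cap were those of PSMD11, PSMD1 and USP14. PSMD11, a lid subunit whose level can limit assembly of the full proteasome, had 8.88, 8.91 and 9.47 in vehicle, 9.61, 10.1 and 9.71 at 100 µg/ml and 10.1, 10.2 and 9.83 at 250 µg/ml. All treated arrays lay above the highest vehicle array, and the difference was 0.99 ± 0.20 at 250 µg/ml (1.98-fold, limma adjusted p = 0.0697) and 0.71 ± 0.20 at 100 µg/ml (1.64-fold, 0.213). Without vehicle replicate 3 the 250 µg/ml difference was 1.18 and passed (limma adjusted p = 0.0288). Leaving out replicate 1 or 2 at 250 µg/ml gave 0.96 and 0.90, which did not pass (0.22 and 0.244).

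PSMD1 had 9.09, 8.88 and 9.32 in vehicle, 9.81, 9.98 and 9.61 at 100 µg/ml and 10.3, 10.2 and 9.46 at 250 µg/ml. The treated arrays did not overlap the vehicle arrays, although replicate 3 at 250 µg/ml stood close to the highest vehicle array. The difference was 0.91 ± 0.23 at 250 µg/ml and 0.71 ± 0.23 at 100 µg/ml (limma adjusted p = 0.117 and 0.26). Without replicate 3 at 250 µg/ml the difference at that dose was 1.18 and passed (limma adjusted p = 0.0333). Leaving out replicate 1 or 2 there gave 0.73 and 0.81, which did not pass (0.336 and 0.375).

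USP14, which trims ubiquitin chains on the cap, had 8.13, 7.39 and 7.94 in vehicle, 8.62, 8.81 and 8.27 at 100 µg/ml and 8.97, 8.64 and 8.43 at 250 µg/ml. Each treated array exceeded each vehicle array, here with vehicle replicate 2 as the lowest. The difference was 0.86 ± 0.23 at 250 µg/ml and 0.74 ± 0.23 at 100 µg/ml (limma adjusted p = 0.131 and 0.233), and 1.02 and 0.90 without vehicle replicate 1. UCHL5, the other deubiquitinase measured, differed by 0.15 ± 0.15 and 0.22 ± 0.15 (adjusted p = 0.644 and 0.522).

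The ubiquitin receptor ADRM1, which also anchors UCHL5, differed from vehicle by 0.64 ± 0.29 with the higher dose and 0.36 ± 0.29 with the lower (limma adjusted p = 0.306 and 0.577), with overlap between arrays. It was 0.39 and 0.11 without vehicle replicate 1. PSMD4, the other receptor measured, had values between 2.79 and 3.83, below the median of all genes on each array, and changes of -0.20 ± 0.29 and -0.16 ± 0.29 (limma adjusted p = 0.76 and 0.841). These values come from 1 probe set, and a further probe set naming PSMD4 together with other genes was not used. The other non-ATPase genes, PSMD2, PSMD3, PSMD6, PSMD8 and PSMD12, which build the base and the lid, lay 0.29 to 0.54 above vehicle with the higher dose and 0.14 to 0.57 above it with the lower, all with overlapping arrays at both doses. Without vehicle replicate 1 these ranges were 0.0077 to 0.36 and -0.03 to 0.63, with PSMD8 lowest at both doses.

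**Figure D4:**
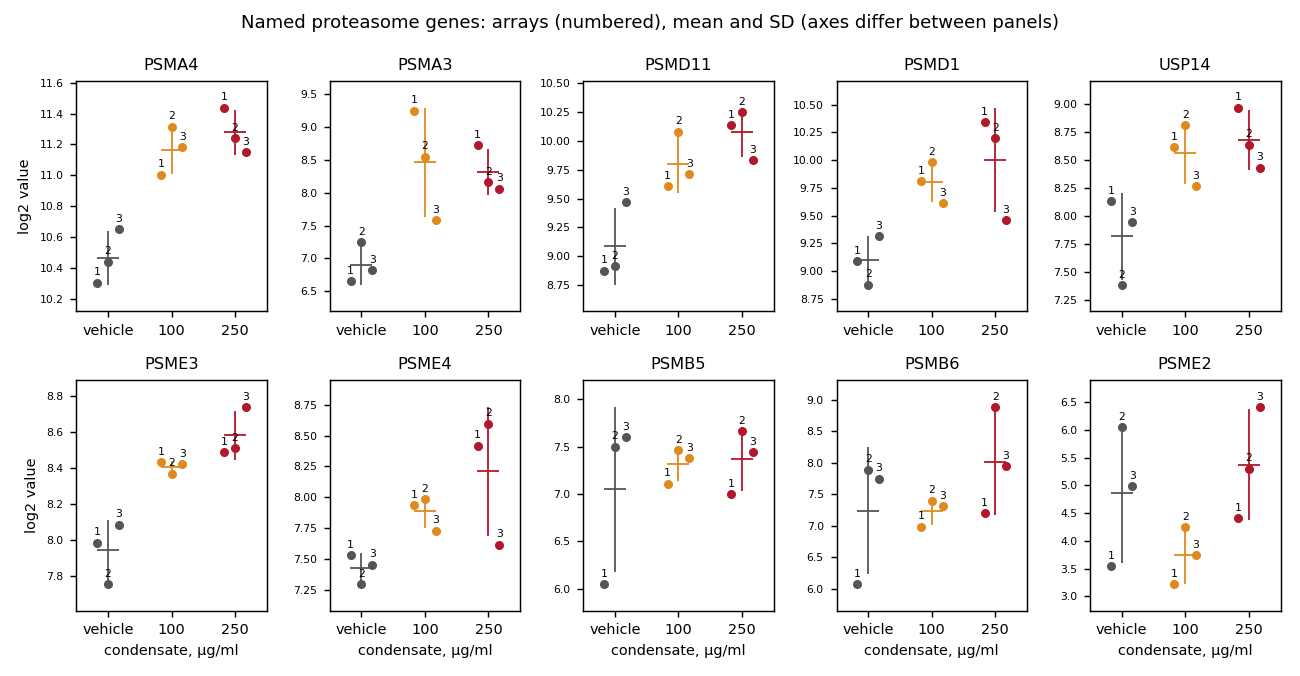
Log2 values of 10 members on each array (points with replicate numbers) with the group mean and SD, for vehicle, 100 µg/ml and 250 µg/ml; the value axes differ between panels and do not start at 0. PSMA4, PSMA3, PSMD11, PSMD1, USP14, PSME3 and PSME4 show treated arrays above all vehicle arrays, while PSMB5 and PSMB6 show 1 low vehicle array at 6.05 and 6.08 and PSME2 spreads widely in every group.

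Among the regulators that act without ubiquitin, PSME3 and PSME4, which act mainly in the nucleus, lay above vehicle at both doses. PSME3 had 7.99, 7.76 and 8.09 in vehicle, 8.43, 8.37 and 8.42 at 100 µg/ml and 8.49, 8.51 and 8.74 at 250 µg/ml. Its arrays were tightly grouped and did not overlap, and the difference of 0.64 ± 0.12 at 250 µg/ml (1.56-fold) had the second lowest adjusted p of the members by limma, 0.0551, with 0.46 ± 0.12 at 100 µg/ml (0.199). At 250 µg/ml PSME3 passed with array weights (limma adjusted p = 0.0444) and without vehicle replicate 3 (0.0412). Leaving out replicate 1 or 2 at 250 µg/ml gave adjusted p-values of 0.169 and 0.196.

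PSME4 had 7.53, 7.30 and 7.46 in vehicle, 7.94, 7.99 and 7.73 at 100 µg/ml and 8.42, 8.60 and 7.62 at 250 µg/ml. Replicate 3 at 250 µg/ml stood well below the other arrays of its group and just above vehicle. The difference was 0.78 ± 0.23 at 250 µg/ml and 0.46 ± 0.23 at 100 µg/ml (limma adjusted p = 0.161 and 0.405). At 250 µg/ml it was 1.08 without that replicate and passed (0.0235). Leaving out replicate 1 or 2 there gave 0.68 and 0.59, which did not pass (0.413 and 0.452).

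PSME1 and PSME2, the paired subunits of the interferon-induced activator, had means below vehicle in 3 of 4 comparisons. PSME1 differed by -0.22 ± 0.27 at 250 µg/ml and -0.40 ± 0.27 at 100 µg/ml (limma adjusted p = 0.712 and 0.515). PSME2 had 3.55, 6.05 and 4.98 in vehicle, 3.22, 4.25 and 3.75 at 100 µg/ml and 4.41, 5.30 and 6.41 at 250 µg/ml. The vehicle arrays overlapped both doses, at 100 µg/ml through vehicle replicate 1 only. The changes of PSME2 were 0.51 ± 0.67 at 250 µg/ml and -1.12 ± 0.67 at 100 µg/ml (limma adjusted p = 0.732 and 0.469). With vehicle replicate 1 left out they were -0.14 and -1.775, and those of PSME1 were -0.30 and -0.48. The inhibitor gene PSMF1 differed by 0.18 ± 0.10 and 0.16 ± 0.10 (adjusted p = 0.41 and 0.492). PSME3IP1, which encodes a partner protein of PSME3 and is no proteasome subunit, had 0.10 and 0.13 (adjusted p = 0.835 and 0.815).

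Of the assembly genes, those that build the core included POMP and PSMG1 above vehicle and PSMG3 below it. POMP, the chaperone that completes the core and is then degraded by it, had 7.61, 8.25 and 8.23 in vehicle, 8.44, 8.68 and 8.27 at 100 µg/ml and 8.46, 8.61 and 8.50 at 250 µg/ml. No treated array overlapped a vehicle array, but vehicle replicates 2 and 3 lay close below the treated ones. The difference was 0.49 ± 0.19 at 250 µg/ml and 0.43 ± 0.19 at 100 µg/ml (limma adjusted p = 0.244 and 0.336). Without vehicle replicate 1 it was 0.28 and 0.22.

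PSMG1, a chaperone of alpha ring assembly, had 6.30, 6.38 and 6.88 in vehicle, 7.04, 7.48 and 6.77 at 100 µg/ml and 6.91, 7.11 and 7.09 at 250 µg/ml. Vehicle replicate 3 reached into the 100 µg/ml group and almost to the 250 µg/ml group. The difference was 0.52 ± 0.21 at 250 µg/ml and 0.58 ± 0.21 at 100 µg/ml (limma adjusted p = 0.273 and 0.28). PSMG3, another such chaperone, differed by -0.46 ± 0.31 and -0.25 ± 0.31 (adjusted p = 0.487 and 0.743). With vehicle replicate 1 left out PSMG3 differed by -0.77 and -0.56, and PSMG1 by 0.41 and 0.47, at 250 and 100 µg/ml.

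The chaperones that build the ATPase ring of the cap were mixed. PSMD5 had 6.62, 7.01 and 7.28 in vehicle, 7.28, 7.83 and 7.50 at 100 µg/ml and 7.25, 7.70 and 7.30 at 250 µg/ml, with changes of 0.45 ± 0.21 and 0.57 ± 0.21 at 250 and 100 µg/ml (limma adjusted p = 0.33 and 0.29). PSMD10, also known as the oncoprotein gankyrin, differed by 0.28 ± 0.33 and 0.54 ± 0.33 (adjusted p = 0.698 and 0.472), and PSMD9 by -0.07 ± 0.16 and -0.08 ± 0.16 (0.853 and 0.849). At 250 µg/ml PSMD10 differed by 0.0072 without vehicle replicate 1, 0.57 without vehicle replicate 2 and 0.055 without 250 µg/ml replicate 1. PAAF1 had changes of 0.55 ± 0.51 and 0.48 ± 0.51 (adjusted p = 0.614 and 0.691) and wide treated groups, with 6.75, 5.29 and 5.10 at 250 µg/ml against 4.85, 5.27 and 5.39 in vehicle; without 250 µg/ml replicate 1 its change there was 0.032, and without replicate 3 it was 0.85. ECPAS, an adaptor that holds core and cap together, differed by -0.36 ± 0.24 and -0.12 ± 0.24 (adjusted p = 0.477 and 0.847). With vehicle replicate 1 left out ECPAS differed by -0.52 and -0.29.

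The higher dose was also set against the lower, for which arrays of the same number deviated together (correlations of 0.44 to 0.68 across genes). By limma 0 of 43 members and 0 of 14207 genes (0.00%) differed between 250 and 100 µg/ml, also with the replicate number as a block. The shares, errors and p-values that follow come from the fit without the block and so do not use the pairing by number. At an unadjusted p under 0.05 1 member was higher and 0 lower, beside 0.985% and 0.859% of all genes. The median difference over the members was 0.06 log2 units, against 0.01 over all genes. PSME2 had the largest difference, 1.63 ± 0.67 (3.10-fold, adjusted p = 1), with 4.41, 5.30 and 6.41 at 250 µg/ml and 3.22, 4.25 and 3.75 at 100 µg/ml and no overlap, while vehicle overlapped both. PSMB6 differed by 0.78 ± 0.54 and PSME4 by 0.33 ± 0.23 (adjusted p = 1 for each), with overlapping arrays. For PSMB6 the difference was 1.18 without 250 µg/ml replicate 1 and 0.34 without replicate 2. For PSME4 it was 0.13 without 250 µg/ml replicate 2 and 0.62 without replicate 3.

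Neighbouring steps of the pathway were taken from lists of related genes. Of 3 measured ubiquitin and activating enzyme genes, 12 shuttle and segregase genes, 6 further proteasome-bound proteins and 7 regulators of proteasome genes, 0 passed the threshold in either direction at either dose by limma. At an unadjusted p under 0.05 these were 3 higher and 1 lower at 250 µg/ml, and 2 higher and 0 lower at 100 µg/ml. Over all genes the shares were 8.74% and 7.90% at 250 µg/ml and 7.00% and 7.65% at 100 µg/ml, so these 28 genes lay near the background. NFE2L1, the regulator of the subunit genes, had 9.70, 9.77 and 9.86 in vehicle, 9.87, 9.90 and 9.65 at 100 µg/ml and 9.85, 9.69 and 9.58 at 250 µg/ml, with changes of -0.07 ± 0.12 and 0.03 ± 0.12 at 250 and 100 µg/ml (adjusted p = 0.795 and 0.927). These are transcript levels, and the protein and activity of NFE2L1 were not measured. VCP, the segregase that hands substrates to the proteasome, differed by 0.46 ± 0.20 and 0.47 ± 0.20 (adjusted p = 0.306 and 0.338), and the polyubiquitin gene UBB by -0.12 ± 0.22 and -0.25 ± 0.22 (0.817 and 0.626).

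Antigen presentation genes, which act downstream of the immunoproteasome, held 1 call among 9 measured at 250 µg/ml, beside 0.549% of all genes, and 0 at 100 µg/ml, beside 0.0633%. TAP2, a subunit of the peptide transporter of the ER, had 4.16, 4.11 and 4.32 in vehicle, 5.18, 4.99 and 4.66 at 100 µg/ml and 5.50, 5.35 and 4.95 at 250 µg/ml. The treated arrays did not overlap the vehicle arrays. TAP2 rose by 1.07 ± 0.18 at 250 µg/ml (2.10-fold, limma adjusted p = 0.0491), with 0.75 ± 0.18 at 100 µg/ml (0.197). This call ended without vehicle replicate 1 or 2 (0.0687 and 0.0984) and without replicate 1 or 2 at 250 µg/ml (0.169 and 0.196). It also ended after quantile normalization (0.0604), after median centring (0.0501) and with only the 6 arrays (0.105). TAP1 had the largest change of the 9 at 250 µg/ml, 1.22 ± 0.29 (2.33-fold, no overlap), but did not pass (limma adjusted p = 0.0931). At 100 µg/ml TAP1 differed by 0.63 ± 0.29 with overlapping arrays (0.366). The median change over the 9 genes was 0.16 at 250 µg/ml and 0.22 at 100 µg/ml.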

How the data were processed

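Transcript levels of ARPE-19 cells were compared on 9 arrays, 3 per group. The deposited values are log2 summaries, 1 for each of 17629 probe sets; per the submitters' processing notes RMA, Partek and build hg18 were used, and their versions, settings and filters are unknown here. RMA usually equalizes the arrays, which can compress changes of dim genes and hide a change in total RNA. No detection calls were used, and the number of arrays limits the precision.

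The platform annotation named 1 gene for 14378 probe sets. Symbols were updated through a RefSeq table (GRCh38.p14), and for genes with several probe sets the one with the highest mean was kept, which left 14207 genes. No member had more than 1 probe set naming it alone. PSMA2 and PSMD4 each also lay on 1 probe set naming several genes, which was not used. Members were fitted with all other genes in limma 3.58.1 (R 4.3.3), with 1 mean per group over the 9 arrays, empirical Bayes moderation, Benjamini-Hochberg adjustment over 14207 genes and a threshold of 0.05. Errors are moderated standard errors. The fit was tested on simulated data with independent noise for each gene and array and 200 of 14207 genes changed 2-fold or 4-fold. Of genes changed 2-fold, 60% to 66% were called in the 3 comparisons. Deviations shared between genes or arrays and smaller changes were not simulated, so this share need not hold for the members. Members and lists were chosen with earlier results of these data known. Named were members past the threshold, the 2 of each role with the largest change at 250 µg/ml, the 3 with the largest difference between doses, and 24 members or partners fixed by function; all others are named to complete their role. Of the list genes, those past the threshold were named, with NFE2L1, VCP and UBB whatever their values, while NFE2L2 and SQSTM1 were not measured alone. TAP1 was named after its values were seen.

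Pairing by array number was judged from correlations between deviations from the group means, which were 0.44 to 0.68 between doses and -0.14 to 0.26 against vehicle. Pairing was taken to hold between doses only, from the data and not from the labels. Motifs were searched in RefSeq promoter windows of 300 bases.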

Additional observations from a re-analysis of the deposited data

How the results depend on the processing

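The limits come from 3 arrays per group, 1 low vehicle array and calls near the threshold. Values below are counts of all genes called, counts of members called, or log2 changes. At 100 µg/ml against vehicle all genes called numbered 4 after quantile normalization, 73 with array weights, 1 with only the 6 arrays, 47 without both dose arrays numbered 3 and 3 with the replicate block, and 1 to 57 with single arrays left out (57 without vehicle replicate 3; 1 without vehicle replicate 1 or 100 µg/ml replicate 1 or 2, 2 without 100 µg/ml replicate 3). Members called were 1 (PSMA4, adjusted p = 0.0411) with array weights. These weights were 6.29 for 100 µg/ml replicate 2 but 0.62 and 0.56 for replicates 1 and 3. The weighted values at 100 µg/ml thus rest mostly on replicate 2. At 250 µg/ml all genes called were 129 after quantile normalization, 153 after median centring, 140 without dim genes, 234 with array weights, 1 with only the 6 arrays, 167 without both arrays numbered 3 and 122 with the replicate block, and 4 to 296 with single arrays left out (296 without vehicle replicate 3, 4 and 19 without 250 µg/ml replicates 2 and 1). Members called there were 0 without dim genes and with only the 6 arrays, 2 with array weights, 2 without both arrays numbered 3 (PSMD1 and PSME4), and 0 to 3 with single arrays left out. With the replicate block 1 was called, ADRM1 (adjusted p = 0.0462) in place of PSMA4 (0.0593), and the call of CHRNA5 at 100 µg/ml ended (0.0871).

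With single arrays left out, the median change over the members ran from 0.087 to 0.47 at 100 µg/ml and from 0.21 to 0.59 at 250 µg/ml, that of cap members from 0.15 to 0.50 and from 0.23 to 0.66, and that of assembly members at 250 µg/ml from 0.044 to 0.46. The lowest median of each came without vehicle replicate 1, except for the assembly members (250 µg/ml replicate 1). Members higher at an unadjusted p under 0.05 numbered 6 (without 100 µg/ml replicate 2) to 13 at 100 µg/ml, with no share over all genes from the same fits beside them. Applying the alternatives to this count and to the count of higher means was decided after seeing the data. Sign changes were seen only in genes below the threshold. Ranges at 100 µg/ml were -0.29 to 0.13 for ECPAS, -0.083 to 0.85 for PSMB3, -0.23 to 0.54 for PSMB5, -0.59 to 0.32 for PSMB6, -0.36 to 0.16 for PSMD4 -0.20 to 0.11 for PSMD9 and -0.014 to 0.11 for NFE2L1. At 250 µg/ml they were -0.31 to 0.043 for UBB, -0.18 to 0.59 for PSMB5, -0.084 to 0.19 for PSMB8, -0.40 to 0.012 for PSMD4, -0.19 to 0.12 for PSMD9 and -0.14 to 1.11 for PSME2. Array weights gave 0.11, 0.026 and 0.025 for ECPAS, PSMB6 and PSMD4 at 100 µg/ml. Leaving out both arrays numbered 3 gave 0.060 and 0.16 for ECPAS and PSMD4 at 100 µg/ml, and -0.025 and -0.0059 for PSMB8 and PSME2 at 250 µg/ml. NFE2L1 at 100 µg/ml was -0.0014 and PSMB8 at 250 µg/ml -0.076 after quantile normalization, and PSMB8 was -0.0057 after median centring. The cause of these shifts was not tested.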

Other observations

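The RefSeq table places CHRNA5, a nicotinic acetylcholine receptor subunit gene, next to PSMA4 among the protein-coding genes of chromosome 15; it was singled out after its values were seen. CHRNA5 rose 4.25-fold at 250 µg/ml, by 2.09 ± 0.21 log2 units (limma adjusted p = 0.00889), and 3.55-fold at 100 µg/ml, by 1.83 ± 0.21 (0.0485). Its arrays did not overlap between treated and vehicle groups. Under the other settings, applied to it after seeing the data, the call at 250 µg/ml ended without 250 µg/ml replicate 2 (0.0716) and with only the 6 arrays (0.0717). The call at 100 µg/ml ended without vehicle replicate 1 or 2 (0.0875 and 0.0522), without 100 µg/ml replicate 1, 2 or 3 (0.309, 0.303 and 0.0522), after quantile normalization (0.0741) and with only the 6 arrays (0.2). Whether the changes of these neighbours are linked was not tested.

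Of the 13 members whose arrays were higher without overlap at 250 µg/ml, all 13 had a promoter window and 5 held TGACNNNGC (PSMA4, PSMD1, PSME4, PSMG1 and USP14). Of the other members 24 had a window and 10 held it. PSMA3 and PSMD11, with the largest changes at 250 µg/ml, held it in none of their windows. PSMD1, USP14, PSMA4 and PSME4, next in size of change, did hold it. Whether motif and size of change go together was not tested.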
